A study of Mus musculus with 12 samples.

Results

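Libraries mock 2 and hpRNA 2 were compared with libraries mock 1 and hpRNA 1, which are 4 of the 12 libraries in a transcript count series of mouse L929 fibroblasts. Each of the 4 is the other number of a label it shares with a library on the opposite side. Mock libraries are described as cells without treatment, and hpRNA libraries as cells after transfection of hpRNA, an abbreviation the labels do not spell out. The sides were chosen from the counts themselves. Mock 1 and hpRNA 1 are closest to each other, as are mock 2 and hpRNA 2, so the pairs cross the labels. No source used here says whether labels or files were exchanged. Mock and hpRNA therefore name only the libraries that carry these labels, and none was moved. A difference between the sides therefore is a description of 4 libraries, given without a test. The other 8 libraries are number 1 and number 2 of HT-DNA, cGAMP, G3-YSD and HSV, written as the labels write them, taken after transfection of HT-DNA, G3-YSD or HSV or after stimulation with cGAMP. Polyadenylated RNA of all 12 was taken 6 hours after transfection. The mock and hpRNA libraries carry L929, an established line, in the cell line label, and their source name says only that it was a mouse fibroblast line. Transfections were in duplicate, and nothing says whether the 2 libraries of a label came from separate cultures.

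As background, type I interferons are secreted proteins that cells make when sensors find foreign or misplaced nucleic acid. Cytosolic DNA is sensed by cGAS, which makes the messenger cGAMP that acts on STING (gene symbol Tmem173), and cytosolic RNA is sensed by RIG-I (Ddx58) and MDA5 (Ifih1). Secreted interferon binds its receptor and activates transcription factors that include STAT2 and IRF9. These bind the interferon-stimulated response element, ISRE, in the promoters of many antiviral genes. Fibroblasts can both make interferon beta and respond to it.

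Fibroblast markers were present in all 4 libraries, and their summed level over 11 genes was 1867 CPM in mock 1, 1888 in hpRNA 1, 1743 in mock 2 and 1757 in hpRNA 2. CPM is the usual count scaled by library depth, here with the TMM factors (trimmed means) of edgeR. Twist1 was at 0 counts in all 4 and Thy1 had at most 8 counts. Lymphocyte markers summed to between 1.25 and 2.02 CPM over 9 genes, and Cd3e, Cd8a, Ms4a1 and Nkg7 were among those at 0 counts in all 4. Epithelial markers summed to between 0.244 and 0.739 CPM over 7 genes, 3 of them at 0, and endothelial markers to between 2.74 and 3.94 CPM over 7 genes, none at 0 in all 4. Myeloid markers summed to between 102 and 106 CPM over 11 genes, none at 0, and Cd68, between 80.5 and 85.8 CPM, made up most of that, while Ptprc, the pan-leukocyte gene, was at most 0.728 CPM.

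Total counts were 16844344 in mock 1, 16938176 in hpRNA 1, 16263972 in mock 2 and 17865784 in hpRNA 2, within the 12650790 to 18912400 of all 12. Between 21635 and 22072 genes were detected in the 4. Mitochondrial transcripts took 2.52% and 2.49% of counts in mock 1 and hpRNA 1, and 2.07% and 2.12% in mock 2 and hpRNA 2. That share moved with the sides, and its part in the differences below was not tested. Fewer responding cells and less RNA per cell cannot be told apart in bulk libraries.

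Closeness of libraries was measured as a noise ratio, where 1 is counting noise alone over genes with at least 100 counts in a pair. The ratio was 1.84 for mock 1 with hpRNA 1 and 1.68 for mock 2 with hpRNA 2. Within a label it was 8.56 for the mock libraries and 8.22 for the hpRNA libraries. The next closest library to mock 1 was HT-DNA 1 at 7.14, and to hpRNA 1 it was also HT-DNA 1 at 6.76. For mock 2 it was HT-DNA 1 at 2.26 and for hpRNA 2 it was cGAMP 1 at 1.94. Mock 1 and hpRNA 1 thus stood far from every other library, whereas mock 2 and hpRNA 2 lay near the HT-DNA and cGAMP libraries.

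Of 16840 genes that passed the filter on low counts, 403 (2.39%) were at least 2-fold apart between mock 2 and mock 1, with 321 higher and 82 lower in mock 2. Between hpRNA 2 and hpRNA 1, 363 genes (2.16%) were at least 2-fold apart, with 302 higher and 61 lower in hpRNA 2. Across labels at the same number there were few. They were 34 genes (0.202%) between hpRNA 1 and mock 1, and 46 (0.273%) between hpRNA 2 and mock 2.

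A gene was counted as apart when the lower library of one side was at least 2-fold above the higher library of the other, after adding 0.5 CPM to each. This gave 226 genes higher in mock 2 and hpRNA 2 (1.34% of those tested) and 19 lower (0.113%), 245 in all (1.45%). Without a minimum fold, the sides did not overlap for 4855 genes that were higher (28.8%) and 5029 that were lower (29.9%) in number 2. The 226 higher genes had differences between 1.06 and 7.60 on the log2(CPM + 0.5) scale, with a median of 2.30. Of these, 124 had a difference of at least 2, 42 of at least 4 and 10 of at least 6. The 19 lower genes had differences of at most 2.12, with a median of -1.25. In 92 of the 226 both number 1 libraries were under 1 CPM, and 12 had 0 counts in both, so the added 0.5 CPM understates the difference of such genes. Just inside the 2-fold limit were Trim6, with a smallest fold of 2.04, and Tmem140, with 2.05. Just outside were Dnah1, with 1.998, and Fbxw17, with 1.99. On the lower side Tmem86a (2.03) and Calcoco1 (2.05) were inside, and Klc4 (1.98) and Hbp1 (1.97) outside.

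**Figure D1:**
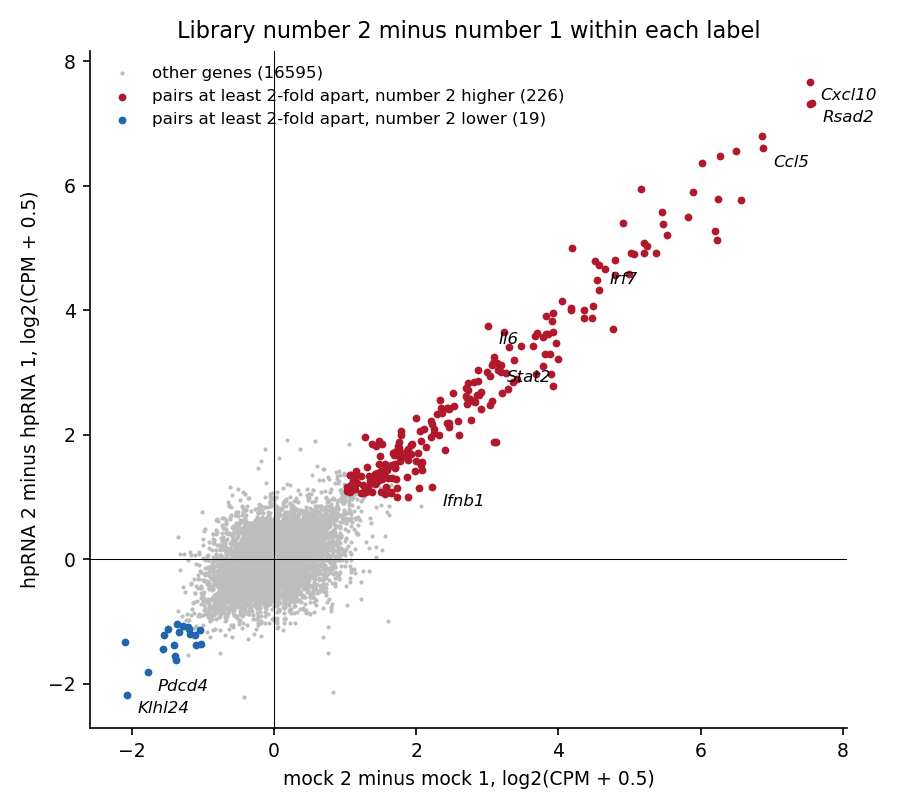
Each point is 1 of 16840 genes, with the difference between mock 2 and mock 1 on the x axis and between hpRNA 2 and hpRNA 1 on the y axis, both as log2(CPM + 0.5). The 226 higher genes (red) run along the diagonal up to 7.60 and the 19 lower genes (blue) down to -2.12.

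The same genes were then tested in libraries that are on neither side. Levels in those libraries did not set which genes were apart, but the filter and the TMM factors used all 12 libraries. Number 2 was tested against number 1 in the 4 libraries labelled HT-DNA and cGAMP with edgeR's quasi-likelihood test, without a label term. Of 14071 genes tested, 1786 (12.7%) had a Benjamini-Hochberg adjusted p under 0.05, of which 1082 (7.69%) were higher and 704 (5%) lower in number 2. That split depended on the scaling, with 929 higher and 1026 lower under upper quartile scaling. Because an HT-DNA library and a cGAMP library serve as replicates here, the p-values measure the spread between these libraries, which may be technical and holds any difference between the labels. These pairs were known beforehand to be close in counts, and they too cross the labels. Their noise ratios were 1.55 for HT-DNA 1 with cGAMP 1 and 1.75 for HT-DNA 2 with cGAMP 2. Within a label the ratio was 3.30 for HT-DNA and 3.97 for cGAMP. That closeness enters the p-values and makes them small.

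Of the 226 genes higher in mock 2 and hpRNA 2, 225 could be tested and 202 were called higher in number 2 of HT-DNA and cGAMP. The median log2 fold change of the 225 was 1.66, against 0.00 over all genes. Another 20 were not called, and Plat, Polr2g and Slc38a1 were called lower. Of the 19 lower genes, 18 were tested, 5 were called lower and 13 were not called, with a median of -0.28. The number of higher calls among the 226 lay between 190 and 207 over the alternative settings, and that of lower calls among the 19 between 1 and 7.

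**Figure D2:**
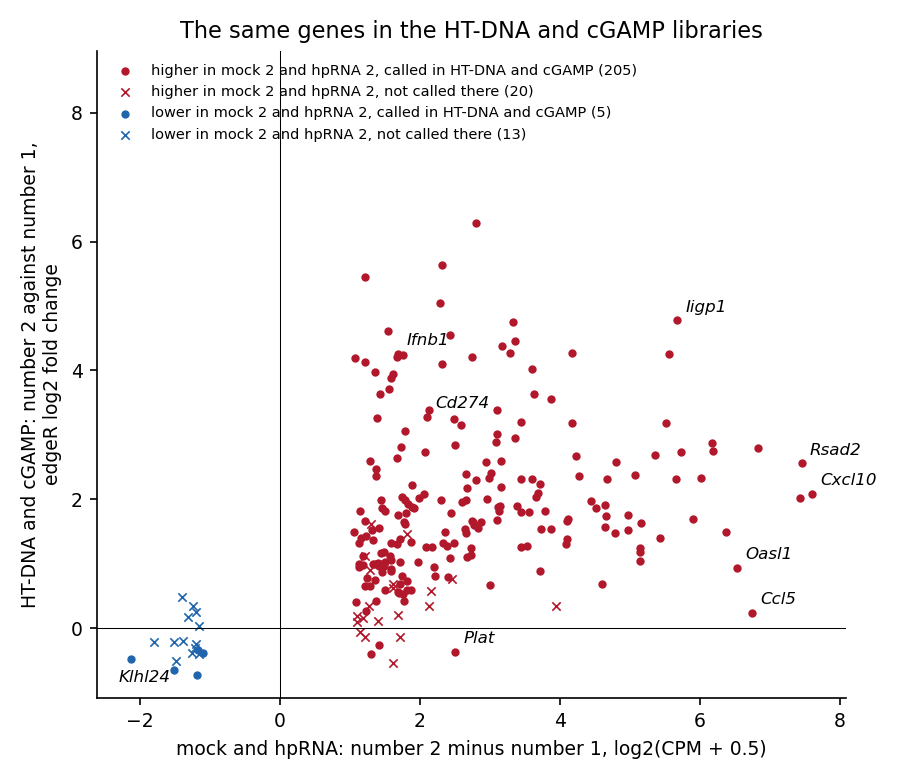
The x axis gives the difference between the sides in mock and hpRNA and the y axis edgeR's log2 fold change of number 2 against number 1 in HT-DNA and cGAMP, for the 225 higher (red) and 18 lower (blue) genes tested there. Filled points were called there and crosses were not. Most red points lie above 0, and the filled red points below it are Plat, Polr2g and Slc38a1.

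Promoters are shown for 5 higher genes that hold an ISRE match, and for Cxcl1, which holds an NF-kB match. They were chosen for holding one, and Oasl1 and Oasl2, also among the genes with the largest differences, have no ISRE match. Sequences are from RefSeq (GRCm38.p6), read 5′ to 3′ on the gene's strand, and each stretch ends 30 bases before the transcript start. Capitals mark matches to GAAANNGAA, the ISRE core, on either strand, and in Cxcl1 a match to GGGANTTTC, an NF-kB motif. Ifit1 has 3 matches, starting at -109, -103 and -84 from the transcript start, the first pair overlapping, and Isg15 has 3 that overlap.

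Ifit1 (chr19:34640739-34640858, plus strand): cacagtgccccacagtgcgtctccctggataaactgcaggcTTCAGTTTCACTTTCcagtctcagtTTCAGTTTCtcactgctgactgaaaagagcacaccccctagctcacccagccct
Rsad2 (chr12:26456483-26456602, minus strand): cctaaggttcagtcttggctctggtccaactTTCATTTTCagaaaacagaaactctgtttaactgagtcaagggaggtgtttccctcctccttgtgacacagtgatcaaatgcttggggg
Cxcl10 (chr5:92348920-92349139, minus strand): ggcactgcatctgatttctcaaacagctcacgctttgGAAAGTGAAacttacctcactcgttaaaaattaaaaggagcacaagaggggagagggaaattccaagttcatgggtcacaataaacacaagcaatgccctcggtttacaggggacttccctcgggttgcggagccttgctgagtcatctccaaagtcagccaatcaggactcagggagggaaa
Isg15 (chr4:156200849-156200918, minus strand): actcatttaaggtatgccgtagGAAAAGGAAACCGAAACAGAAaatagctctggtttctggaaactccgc
Irgm2 (chr11:58214877-58214946, plus strand): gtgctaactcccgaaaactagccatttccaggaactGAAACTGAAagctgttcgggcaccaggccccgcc
Cxcl1 (chr5:90891145-90891214, plus strand): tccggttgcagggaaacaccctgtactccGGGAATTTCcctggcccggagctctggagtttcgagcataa

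In a window from 250 bases before to 50 after the start, an ISRE match was found in 76 of the 161 higher genes that have a RefSeq promoter entry (47.2%). It was found in 1 of 15 lower genes (A4galt), in 981 of 11143 tested genes (8.8%) and in 2812 of all 32851 promoters (8.56%). Among higher genes on the effector list below, 35 of 57 had a match (61.4%). With 1 more A required at its end, the motif was in 40.4% of the higher genes, 0% of the lower and 3.82% of those tested. The NF-kB motif was found in 8 of the 161 (4.97%), namely Clec2d, Cxcl1, Cxcl2, Gbp5, Il6, Neurl3, Oas1c and Tlr3, in 0 of the 15 lower genes, in 1.18% of tested genes and in 1.11% of all promoters. A forkhead motif, GTAAACA, was found in 9 of the 161 (5.59%), in 2 of the 15 lower genes (13.3%, Rmnd5a and Ypel3), and in 3.25% of tested genes and 3.65% of all promoters. A match describes letters in this window, and binding was not measured. Only these exact letters were sought, so other forms of each site are not counted or marked, also in the stretches printed above. Ccl5, Mx2 and Klhl24 have no entry.

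**Figure D3:**
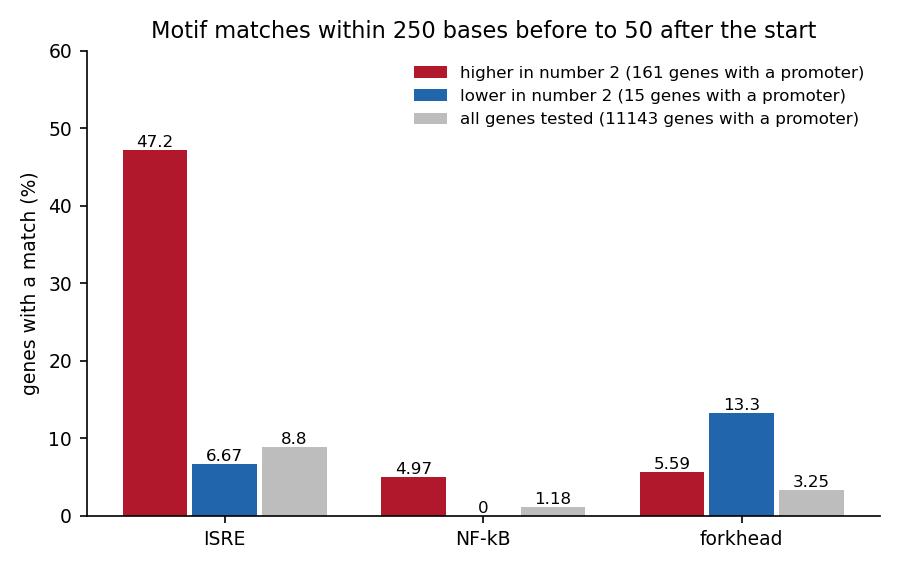
Bars give the percentage of genes with a promoter entry that hold each motif, for genes higher in mock 2 and hpRNA 2, genes lower there, and all genes tested. The ISRE bar of the higher genes stands at 47.2%, against 8.8% of all genes tested.

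Interferon transcripts themselves were nearly absent from mock 1 and hpRNA 1. Ifnb1, the interferon beta gene, was not counted once in either, and had 30 counts in mock 2 and 11 in hpRNA 2. Against a floor of 3 counts in each number 1 library, Ifnb1 was at least 10.7-fold higher in mock 2 than in mock 1, and at least 3.60-fold higher in hpRNA 2 than in hpRNA 1. Ifna4, an interferon alpha gene, had 0 counts in mock 1 and 1 in hpRNA 1, against 13 in mock 2 and 27 in hpRNA 2. The order of mock 2 and hpRNA 2 thus differed between the genes. The other 19 of 21 interferon genes had at most 6 counts in each of the 4, and 9 had 0 in all 4. Ifnb1 and Ifna4 were both higher in number 2 of HT-DNA and cGAMP, by 4.26 ± 0.24 and 3.94 ± 0.29 (log2, SE). Ifnb1 was at 0.677 CPM in HT-DNA 1 and 0.379 in cGAMP 1, which is near the floor. It was at 11.2 CPM in HT-DNA 2 and 9.21 in cGAMP 2. Both genes passed the filter on low counts there only through number 2, so no p-value is given for them.

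Sensors divided into those that were apart and those that were not. Ddx58 (RIG-I) was at 6.59 CPM in mock 1, 7.87 in hpRNA 1, 226 in mock 2 and 200 in hpRNA 2, a log2 difference of 4.79. Ifih1 (MDA5) was at 1.36 and 1.48 CPM in number 1 and at 68.3 and 66.2 in number 2, a difference of 5.14. Dhx58, which encodes the related helicase LGP2, was 4.09 higher. Tlr3, the endosomal receptor for double-stranded RNA, was at 0.739 and 0.742 CPM in number 1 and at 10.8 and 9.46 in number 2. These RNA sensors are themselves known interferon-stimulated genes.

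Cgas and Tmem173 of the DNA sensing pathway were less than 2-fold apart. Cgas was at 8.75 CPM in mock 1 and 7.36 in hpRNA 1, and at 15.1 in mock 2 and 14.6 in hpRNA 2, so the sides did not overlap but the 2-fold limit was not met. Tmem173, which encodes STING, was at 19.7, 22, 20.9 and 21.1 CPM in mock 1, hpRNA 1, mock 2 and hpRNA 2, and the sides overlapped. In contrast, Tmem173 was called higher in number 2 of HT-DNA and cGAMP, by 0.72 ± 0.09 (log2, SE, edgeR adjusted p = 1.44e-05), and Cgas by 0.81 ± 0.10 (adjusted p = 1.27e-05). The sensing list mixes genes of DNA and RNA sensing, and Ddx58, Ifih1, Dhx58 and Zbp1 stand on the effector list instead. Of its 23 genes tested, Tlr3, Dnase1l3 and Adar were apart, all higher (1.34% of all genes), and the median difference was 0.11. Of 22 tested in HT-DNA and cGAMP, 12 were called higher and 1 lower, against 7.69% and 5% of all genes.

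Of 18 listed interferon signalling genes, 7 were apart, all higher in number 2 (1.34% of all genes), and the median of the list was 0.14. Ifnar1, a chain of the type I receptor, was at 77.1 and 75.5 CPM in mock 1 and hpRNA 1 and at 62.7 and 61.6 in mock 2 and hpRNA 2. Irf3, the factor that STING activates, was at 42.1, 38.2, 41.3 and 43.7 CPM in mock 1, hpRNA 1, mock 2 and hpRNA 2, with overlapping sides.

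Irf7, which amplifies interferon production, was at 3.07 and 2.68 CPM in number 1 and at 84.6 and 83.6 in number 2, a log2 difference of 4.65. Stat2 was at 25.6 and 23.2 CPM against 228 and 209, a difference of 3.14, and Irf9, its DNA-binding partner, was 3.01 higher. Socs1, an inhibitor of the receptor's kinases, was at 5.12 and 7.25 CPM against 23.1 and 21.6. Irf1 and Irf5 were also apart. The test in HT-DNA and cGAMP called 11 of the 18 higher and 0 lower, against 7.69% and 5% of all genes, with Irf7 at 1.91 ± 0.06 and Stat2 at 1.89 ± 0.05 (log2, SE).

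Interferon-stimulated effectors, the antiviral genes that interferon switches on, made up the largest listed group. Of 80 tested, 71 were apart, all higher in number 2, against 1.34% of all genes, and the median difference was 2.95 against 0.00 over all genes. Their summed level was 1654 CPM in mock 1, 1671 in hpRNA 1, 11496 in mock 2 and 10474 in hpRNA 2. Number 2 was thus 6.95 times number 1 for mock and 6.27 times for hpRNA. In HT-DNA the sums were 5238 and 15730 CPM and in cGAMP 5684 and 16450 CPM, ratios of 3.003 and 2.89. Both number 2 libraries of mock and hpRNA therefore lay between number 1 and number 2 of HT-DNA and of cGAMP.

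Cxcl10, a chemokine that attracts T cells and is listed with the chemokines, had the largest difference, 7.60, from 1.71 and 1.37 CPM in mock 1 and hpRNA 1 to 408 and 381 in mock 2 and hpRNA 2. Rsad2, which encodes the antiviral enzyme viperin, was at 3.41 and 3.65 CPM against 744 and 667, a difference of 7.45. Ifit1, which binds foreign RNA ends, was at 2.10 and 2.28 CPM against 486 and 441, a difference of 7.43. Each of the 3 carries an ISRE match in the stretches printed above. These genes were also higher in number 2 of HT-DNA and cGAMP, by 2.09 ± 0.05, 2.56 ± 0.06 and 2.02 ± 0.05 (log2, SE), with edgeR adjusted p of 4.21e-14, 1.88e-14 and 9.00e-14.

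Isg15, a ubiquitin-like modifier, was at 3.13 and 2.74 CPM against 216 and 193, and Usp18, the protease that removes it, at 2.44 and 2.51 against 166 and 135. Oasl1, an RNA-binding inhibitor of Irf7 translation, was at 4.26 and 3.71 CPM in number 1 and at 429 and 398 in number 2. Mx1 and Mx2, of the family of dynamin-like antiviral GTPases, were 5.56 and 6.19 higher, and Mx2 is annotated as a polymorphic pseudogene. Zbp1, a sensor of Z-form nucleic acid, was at 0.0568 and 0.399 CPM against 14.7 and 11.2. Bst2, which tethers budding virus, was at 78.7 and 84.9 CPM against 223 and 217, a difference of 1.43.

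Aim2, Epsti1, Ifi27, Ifi27l2a, Nmi, Parp12, Pnpt1, Slfn1 and Tdrd7 were the 9 listed effectors that were not apart. Aim2, an inflammasome DNA sensor, was at 75.5, 71.4, 83.0 and 88.5 CPM in mock 1, hpRNA 1, mock 2 and hpRNA 2. Of 79 effectors tested in HT-DNA and cGAMP, 76 were called higher and 0 lower, against 7.69% and 5% of all genes. Members of near-identical families, such as Ifit3 with Ifit3b, Apol9a with Apol9b, and the Oas1, Slfn, Trim30 and Ifi200 genes, can share reads, so the split between them is uncertain.

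**Figure D4:**
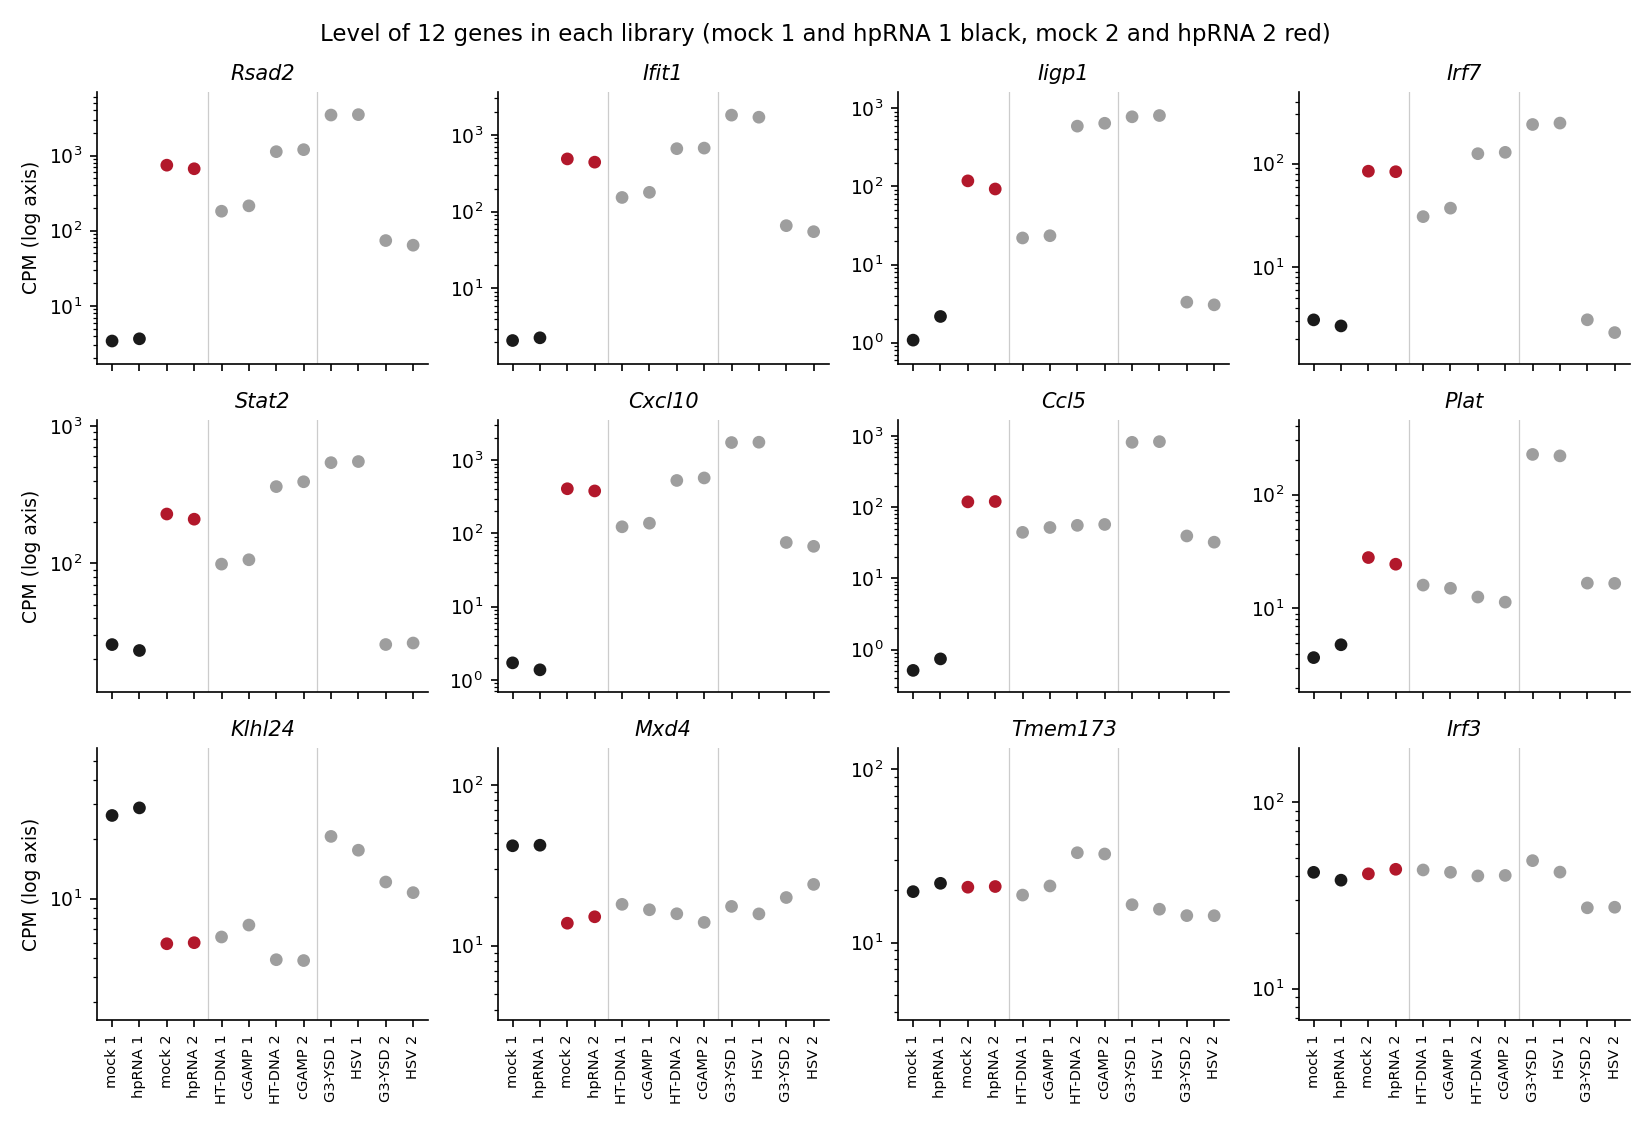
Each panel gives the level of 1 gene in the 12 libraries in CPM on a log axis, with mock 1 and hpRNA 1 in black, mock 2 and hpRNA 2 in red and the other 8 in grey. Ifit1 stands at 2.10 and 2.28 CPM in black and at 486 and 441 CPM in red, while Tmem173 lies between 19.7 and 22 CPM in all 4.

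Guanylate-binding proteins and immunity-related GTPases, which act on pathogen-containing vacuoles, were nearly off in number 1. Their summed level over 18 genes was 17.1 CPM in mock 1, 19.1 in hpRNA 1, 721 in mock 2 and 627 in hpRNA 2. Of the 18, 17 were apart, all higher (1.34% of all genes), with a median difference of 3.45, and Gbp11 was not. Irgm2 was at 1.02 and 1.94 CPM against 112 and 93.5, Iigp1 at 1.08 and 2.17 against 118 and 92.8, and Gbp3 at 0.853 and 0.913 against 61.7 and 51.7. All 18 were called higher in number 2 of HT-DNA and cGAMP, against 7.69% of all genes. Iigp1 was 4.78 ± 0.06 higher there (log2, SE, edgeR adjusted p = 8.75e-18).

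Antigen presentation genes were split. Of 21 tested, H2-T24, H2-T22, H2-T23, Cd274, Tap1 and Tapbp were apart, all higher, against 1.34% of all genes. The median of the list was 0.48. Cd274, the checkpoint ligand PD-L1, was at 3.30 and 3.08 CPM in mock 1 and hpRNA 1 and at 15.8 and 14.8 in mock 2 and hpRNA 2. Tap1, a peptide transporter subunit, was at 61.2 and 64.5 CPM against 173 and 163. The classical heavy chain gene H2-K1 was at 394 and 425 CPM against 512 and 510, and B2m, its partner chain, at 713 and 759 against 794 and 835. All 21 were called higher in number 2 of HT-DNA and cGAMP, against 7.69% of all genes. Cd274 was 3.28 ± 0.10 and B2m 0.35 ± 0.04 higher there (log2, SE).

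Of 27 chemokines and cytokines tested, 12 were apart, all higher, against 1.34% of all genes, with a median of 0.92. Ccl5, which attracts T cells and monocytes, was at 0.512 CPM in mock 1, 0.742 in hpRNA 1, 118 in mock 2 and 120 in hpRNA 2, a difference of 6.74. Il6, an inflammatory cytokine, was at 0.568 and 0.285 CPM against 8.11 and 10.1. Ccl2 and Ccl7, monocyte attractants, were at 292 and 298 CPM against 980 and 1016, and at 152 and 140 against 497 and 463.

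Some chemokines stood higher in mock 2 and hpRNA 2 than in any HT-DNA or cGAMP library. Ccl5 was at 44.2 and 51.8 CPM in HT-DNA 1 and cGAMP 1 and at 55.5 and 57.1 in HT-DNA 2 and cGAMP 2, so mock 2 and hpRNA 2 lay above all 4. Its fold change there was 0.24 ± 0.07 (log2, SE, edgeR adjusted p = 0.0279). That call was lost with DESeq2 (adjusted p = 0.188) and without HT-DNA 1 (adjusted p = 0.356), and its adjusted p was between 0.000175 and 0.0498 in the other alternatives. Ccl4 was at 1.02 and 0.514 CPM in mock 1 and hpRNA 1 and at 27.3 and 32.0 in mock 2 and hpRNA 2, above the 12.2 to 21.7 of HT-DNA and cGAMP. Cxcl1, a neutrophil attractant with the NF-kB match printed above, was at 69.7 and 72.6 CPM against 153 and 164, and was not called in HT-DNA and cGAMP (-0.06 ± 0.04). Among those 4 libraries 18 of 25 listed chemokines and cytokines were called higher and 0 lower, against 7.69% and 5% of all genes.

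Genes of NF-kB feedback and the immediate-early response lay mostly within 2-fold, as did most genes tested. Of 21 NF-kB genes tested none was apart, against 1.45% of all genes, and the median was 0.16. The sides did not overlap for 13 that were higher in number 2 and 4 that were lower, against 28.8% and 29.9% of all genes. Among immediate-early genes these counts were 17 and 6. Nfkbia, the inhibitor that NF-kB induces, was at 91.0 and 96.1 CPM against 114 and 115, and Tnfaip3, a feedback deubiquitinase, at 9.04 and 9.41 against 21.8 and 18.5. Of 28 immediate-early genes, Egr1 and Dusp5 were apart, both higher, against 1.34% of all genes, with a list median of 0.31. Egr1, a growth factor induced transcription factor, was at 19.89 and 19.97 CPM in number 1 and at 68.3 and 70.2 in number 2, while Fosb, at 0.909, 1.20, 0.854 and 1.12 CPM in mock 1, hpRNA 1, mock 2 and hpRNA 2, overlapped. Egr1 was also higher in number 2 of HT-DNA and cGAMP, by 0.42 ± 0.07 (log2, SE, edgeR adjusted p = 0.000453), with mock 2 and hpRNA 2 above those 4 libraries, which held 36.9 to 52.0 CPM. There 10 of 20 NF-kB genes were called higher and 1 lower, and 5 of 28 immediate-early genes higher and 4 lower, against 7.69% and 5% of all genes.

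**Figure D5:**
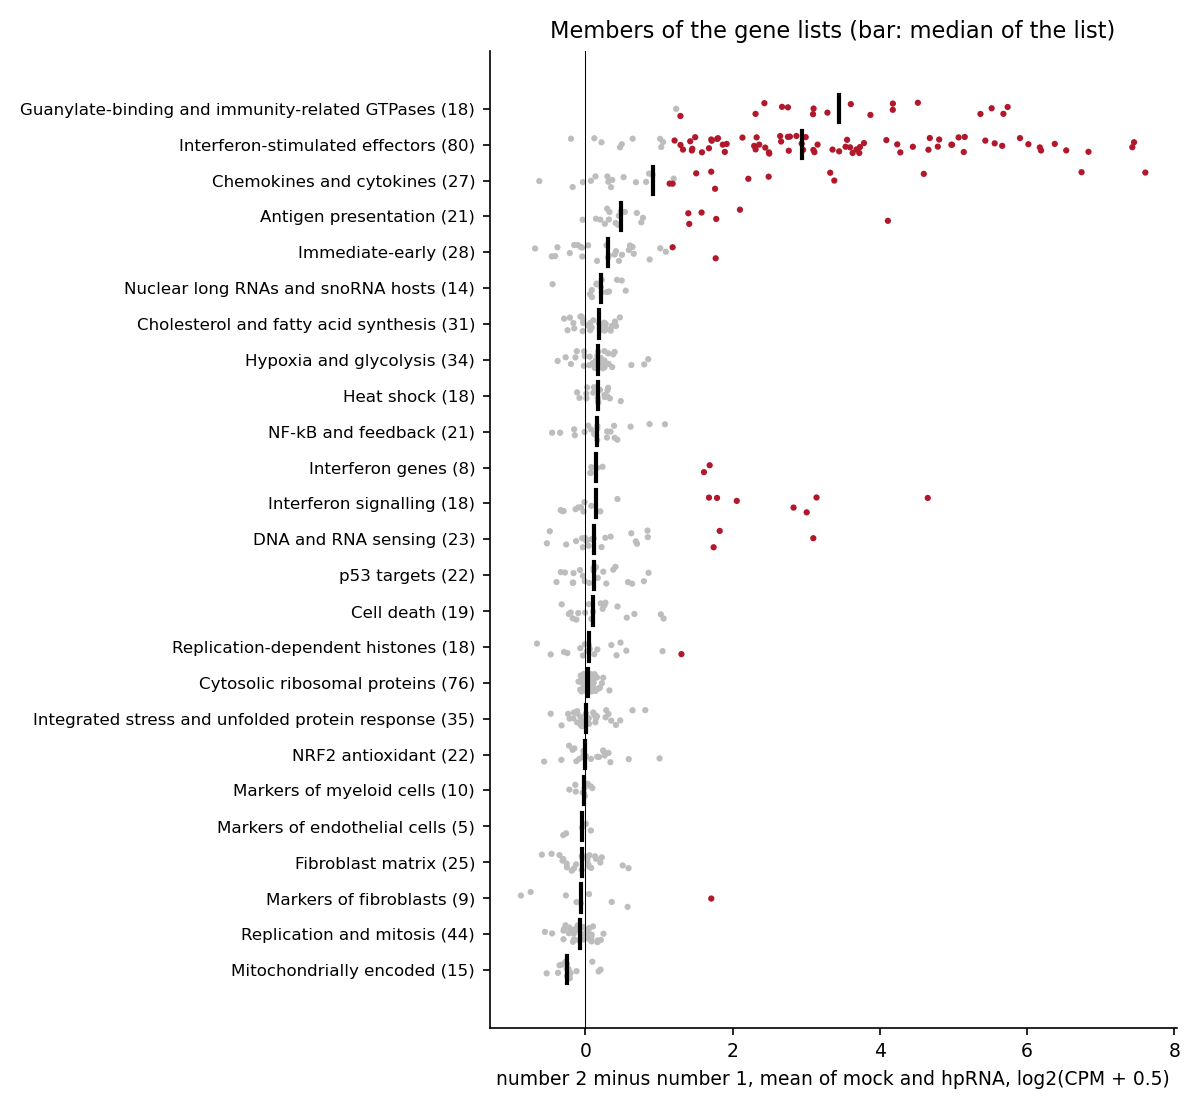
Each point is a tested member of a gene list, placed by the difference of mock 2 and hpRNA 2 from mock 1 and hpRNA 1 as log2(CPM + 0.5), red where the sides were at least 2-fold apart and number 2 was higher. Lists with at least 5 tested members are shown. Black bars are their medians, which run from -0.25 for mitochondrially encoded genes to 3.45 for the guanylate-binding and immunity-related GTPases.

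Of the 226 higher genes, 104 were on no list. The following were chosen after their values were seen. Apol9a, an apolipoprotein L family gene, was at 4.60 and 4.91 CPM against 193 and 177. Hdc, histidine decarboxylase, was at 0.284 and 0.342 CPM against 11.7 and 8.85. Znfx1, a helicase with antiviral activity, was at 49.9 and 52.2 CPM against 340 and 314. Plat, which encodes tissue plasminogen activator, was at 3.69 and 4.79 CPM against 28.0 and 24.5.

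Plat, Polr2g and Slc38a1 went the other way in HT-DNA and cGAMP. Plat was at 16 and 15 CPM in HT-DNA 1 and cGAMP 1 and at 12.6 and 11.4 in HT-DNA 2 and cGAMP 2, a fold change of -0.37 ± 0.10 (log2, SE, edgeR adjusted p = 0.0274). Polr2g, an RNA polymerase II subunit gene, was at 39.3 and 43.5 CPM in mock 1 and hpRNA 1 and 109 and 113 in mock 2 and hpRNA 2, and its fold change there was -0.26 ± 0.05. Slc38a1, a glutamine transporter, was at 8.92 and 9.30 CPM against 23.6 and 23, and its fold change there was -0.40 ± 0.10. The difference between the 2 sets of libraries was not tested.

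Higher genes often lay side by side. Of the 226, 107 (47.3%) had a neighbouring tested gene that was also higher, against 288 of the 16606 other placed genes (1.73%). They formed 37 runs, 14 of them of at least 3 genes. The longest held 10 genes of the Ifi200 family, including Ifi204 and Ifi205, at chr1:173630917-174031810 (mm10). The Ifit genes formed a run of 6 at chr19:34550694-34650009, and Gbp5, Gbp7, Gbp3, Gbp2b and Gbp2 a run of 5 at chr3:142493978-142638008. H2-T24, H2-T23, H2-T22 and Gm6034 lay together at chr17:36005695-36058645. Many of these runs are families of related sequence, and the strand setting of the counting is not given, so reads of overlapping neighbours can be shared.

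The 19 lower genes had differences between 1.09 and 2.12 in size. Their summed level was 353 CPM in mock 1, 348 in hpRNA 1, 133 in mock 2 and 134 in hpRNA 2. Klhl24, a ubiquitin ligase adaptor, was at 26.4 and 28.8 CPM in mock 1 and hpRNA 1 and at 5.92 and 5.99 in mock 2 and hpRNA 2, a difference of -2.12. Pdcd4, which restrains translation initiation, was at 17.8 and 17.3 CPM against 4.82 and 4.59. Mxd4, a MAX partner that opposes MYC, was at 41.8 and 42.1 CPM against 13.8 and 15.1.

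Klf11, a transcriptional repressor, was at 24.4 and 23.1 CPM against 9.70 and 10.7, and Rmnd5a, a ubiquitin ligase subunit gene, at 39.0 and 37.9 against 17.8 and 16. Dbp, a circadian transcription factor, was at 8.92 and 8.27 CPM against 3.23 and 3.42. Fbxl20, Mturn, Ypel3, Slco2b1, A4galt and Crebrf differed by between -1.19 and -1.50. Fbxo32, a ubiquitin ligase of muscle wasting chosen here after its values were seen, was at 2.96 and 2.85 CPM against 0.305 and 0.840. None of the 19 was on a list, and 15 had at least 5 CPM in the higher pair.

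In the HT-DNA and cGAMP libraries the lower genes stood near the level of mock 2 and hpRNA 2. Their sum was 144 CPM in HT-DNA 1, 144 in cGAMP 1, 127 in HT-DNA 2 and 121 in cGAMP 2. Mock 1 and hpRNA 1 lay above all 4 in each of the 19 genes and above the other 10 libraries in 14. Fbxl20, Klf11, Klhl24, Rmnd5a and Tmem86a were called lower in number 2. Klf11 was -0.73 ± 0.12 (log2, SE, edgeR adjusted p = 0.000329) and Klhl24 -0.48 ± 0.15 (adjusted p = 0.0452, from 0.0266 to 0.421 over the alternatives). Of these 5 calls, that of Klf11 was kept in every alternative run. The other 4 were lost with DESeq2 and without cGAMP 1, and 3 of the 5 were lost without HT-DNA 1, without HT-DNA 2 and without cGAMP 2.

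The higher genes showed the opposite order of libraries. Mock 1 and hpRNA 1 lay below all 4 HT-DNA and cGAMP libraries in 219 of the 226 genes and below the other 10 libraries in 142. Mock 2 and hpRNA 2 lay between number 1 and number 2 of HT-DNA and cGAMP in 173, above all 4 in 27 and below all 4 in 0. The 27 include Oasl1 and Ifih1, among genes named above, and also Cmpk2 and Lif. The summed level of the 226 was 3155 CPM in mock 1, 3193 in hpRNA 1, 19075 in mock 2, 17693 in hpRNA 2, 9342 and 10045 in HT-DNA 1 and cGAMP 1, and 26024 and 27104 in HT-DNA 2 and cGAMP 2.

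In the G3-YSD and HSV libraries number 1 was the higher one. Each of the 226 genes was lower in number 2 than in number 1 under both labels, with medians of -4.39 and -4.36. Among the other 16595 genes that were not apart, 8315 likewise had both of these differences opposite in sign to that in mock and hpRNA. Together the 226 genes reached 63552 CPM in G3-YSD 1 and 63431 in HSV 1, with 3989 in G3-YSD 2 and 3938 in HSV 2, against 3155 and 3193 in mock 1 and hpRNA 1.

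Tested by label, hpRNA against mock in the edgeR fit of all 12 libraries, 0 of 16840 genes were called (0%), 58 had an unadjusted p under 0.05, and DESeq2 called 1. That fit pools the spread within labels over all 12 libraries, as a biological coefficient of variation of 0.397. In the fit of HT-DNA and cGAMP by number it was 0.0360. Noise ratios within a label were 85.0 for G3-YSD and 79.0 for HSV, against 8.56 for mock, 8.22 for hpRNA, 3.30 for HT-DNA and 3.97 for cGAMP. The pooled spread is thus not that of mock and hpRNA alone. It enters the test, so a lack of calls does not show that the labels are alike. Within a number each label has 1 library, so what follows is a description. Of the 226 higher genes 178 were lower in hpRNA 2 than in mock 2, with a median of -0.14, whereas 89 were lower in hpRNA 1 than in mock 1, with a median of 0.01. Over all genes 8169 were lower in hpRNA 2 and 7863 lower in hpRNA 1. Same-numbered mock and hpRNA libraries deviated together, with a correlation of 0.79 across genes. The sides were chosen as the closest pairs by counts, so a high correlation was built in. An edgeR fit of the 4 libraries alone with the number as a block called 170 of 16840 genes (1.01%), 126 higher (0.748%) and 44 lower (0.261%) in hpRNA. Of the 226 higher genes it called 13 lower and 0 higher in hpRNA. That fit has 1 residual degree of freedom. Its block is the pairing that the counts chose, which makes its spread small, and the 226 come from the same counts. No conclusion about the labels is drawn from its calls.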

How the data were processed

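The authors deposited raw counts per Ensembl gene for 12 libraries, without normalization. The submitters' processing notes name HISAT2, HTSeq and mm10 without versions, and the sources used here give neither annotation release nor strand setting. Reads were paired, 150 bases. Symbols and positions come from GENCODE M21, which held 54495 of 54532 genes.

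Counts were filtered and TMM-scaled with edgeR 4.0.16 (R 4.3.3), and DESeq2 1.42.0 was an alternative. No test was made between the sides, since the counts chose them. HT-DNA and cGAMP were fitted alone (2 residual degrees of freedom), and labels in all 12 (6). Scripts were tested on simulated data. Named genes are the 12 with the largest difference in each direction, up to 4 per list, and a fixed panel. All but the panel needed at least 5 CPM in the higher pair. Predicted genes and pseudogenes were left out by symbol only, so Mx2 remained. Members, lists and rules were chosen with earlier results of these data known. The digit ending each title was taken as the replicate, though for HSV it may name a virus type. Some genes of the lists are not reported here.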

Additional observations from a re-analysis of the deposited data

Results flagged for a closer look

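The summed level of the interferon-stimulated effectors moved in opposite directions between numbers under different labels. Its log2 ratio of number 2 over number 1 was 2.72 as the mean of mock and hpRNA, with both labels above 0. It was -4.14 as the mean of G3-YSD and HSV, with both below 0. The difference was not tested.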

How the results depend on the processing

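The 226 higher genes became between 249 and 268 when 1 library was left out and between 167 and 332 over all settings. The 19 lower genes became 27 without mock 2, 30 without mock 1, 31 without hpRNA 1 and 43 without hpRNA 2, since fewer libraries must then stand apart, 51 with 0.1 CPM added and 8 with 2 CPM added. In HT-DNA and cGAMP DESeq2 called 925 genes against 1786, the cause of which was not tested, and leaving out 1 library gave 1456 to 2249. Fosb, not called, lay between -0.17 and 0.34 with 1 library left out, below 0 without HT-DNA replicate 2. For hpRNA against mock, DESeq2 called 1 gene and the 4 libraries with a replicate block 170 (126 higher, 44 lower in hpRNA, 13 of the latter among the 226), while all 12 with a replicate block gave 0. Deviations of same-numbered libraries correlated at 0.79 between mock and hpRNA, whose pairs were chosen for closeness in counts. The replicate block of those 4 libraries is that same chosen pairing. Between mock and G3-YSD the correlation was -0.41, so the numbers were not treated as a pairing. The log2 ratio of summed effectors, 2.72, stayed between 2.66 and 2.79. No scaling moved the median of all genes by more than 0.0403.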

Other observations

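Genes of glycolysis and the hypoxia response differed by between -0.38 and 0.85 on the log2(CPM + 0.5) scale. Their summed level over 34 tested entries was 11368 CPM in mock 1, 11869 in hpRNA 1, 13279 in mock 2 and 13318 in hpRNA 2. None was 2-fold apart, but the sides did not overlap for 22 that were higher in number 2 and 5 that were lower, against 28.8% and 29.9% of all genes. Hk2, a hexokinase that phosphorylates glucose, was at 142 and 152 CPM against 260 and 252. Slc2a1, a glucose transporter, was at 177 and 186 CPM against 282 and 280. In HT-DNA and cGAMP 18 of the 34 were called lower in number 2 and 1, Hk2, higher, against 5% and 7.69% of all genes. Slc2a1 there was -0.35 ± 0.04 (log2, SE, edgeR adjusted p = 7.55e-06). The difference between these libraries and mock and hpRNA was not tested.

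Of 9 fibroblast markers tested, the sides did not overlap for 3 that were higher in number 2 and 5 that were lower, against 28.8% and 29.9% of all genes. Fap, a surface protease, was the 1 that was 2-fold apart, at 0.0568 and 0 CPM against 1.34 and 1.12. These levels rest on 1 and 0 counts in mock 1 and hpRNA 1 and on 22 and 20 in mock 2 and hpRNA 2. Fap also lies beside Ifih1, which was higher too, and whether the 2 genes share reads was not tested. Prrx1, a mesenchymal transcription factor, was at 11.4 and 12.3 CPM against 14.8 and 15.8. Pdgfra, a platelet-derived growth factor receptor, was at 108 CPM in mock 1, 113 in hpRNA 1, 59.96 in mock 2 and 60.1 in hpRNA 2, and Pdgfrb at 206, 216, 124 and 128. Cd44, the hyaluronan receptor, was higher, at 222, 222, 334 and 328 CPM. Col1a1, a collagen chain, was at 258, 282, 204 and 220 CPM. None of the 9 markers was called in HT-DNA and cGAMP. Col1a1 was -0.15 ± 0.04 (log2, SE, edgeR adjusted p = 0.0191).

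Of 31 cholesterol and fatty acid synthesis genes, 17 did not overlap and were higher in number 2, and 6 lower. The shares of all genes were 28.8% and 29.9%, and none of the 31 was 2-fold apart. In HT-DNA and cGAMP 0 of 30 were called higher and 8 lower, against 7.69% and 5% of all genes. Among 44 replication and mitosis genes, 13 did not overlap and were higher, close to the share of all genes, and 23 lower, with a median difference of -0.07. The 76 cytosolic ribosomal protein genes had a median of 0.03, the 15 mitochondrially encoded genes -0.25 and the 35 genes of the stress responses 0.01. None of these was 2-fold apart, against 1.45% of all genes. The sides did not overlap for 2 mitochondrially encoded genes that were higher in number 2 and 11 that were lower. For ribosomal protein genes these counts were 13 and 3, and for stress response genes 16 and 12. In HT-DNA and cGAMP 14 stress response genes were called lower and 1 higher, against 5% and 7.69% of all genes.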
